A study of Homo sapiens with 3 samples.

Results

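Mitochondrial ribosomal proteins are encoded in the nucleus and form, with RNAs made inside the organelle, the ribosome that translates the mitochondrial genome. The genes described here were all those listed with a symbol of MRPL or MRPS, a number and at most 1 further letter, which gave 76 of the 16149 genes in the deposited data, namely 47 MRPL genes and 29 MRPS genes. The mRNA of 3 cultured human hepatocellular carcinoma (HCC) cell lines was sequenced, with 1 library for each line. According to the labels all 3 are HCCLM3, an established line, and they differ in where they spread as xenografts: the parent is given a low metastatic ability, subclone 1 a higher one directed to the lung, and subclone 2 an ability for lung together with celiac lymph node. The study's methods describe the parent instead as HCCLM3-R, a derivative that expresses red fluorescent protein and has high metastatic potential, and its monoclonal lines were grown by limiting dilution of cells from metastases in nude mice. Which named line was sequenced is not given in the sources used here, so that each subclone is a single clone rests on its label. The design names no comparison beyond gene expression among these lines.

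The libraries of the parent, subclone 1 and subclone 2 held 4488825, 4609696 and 4725150 reads, as recovered from the deposited RPKM, which are reads scaled to gene length and to library size. A single library per line leaves no replicate, and every ratio below therefore compares libraries, without a test of the lines. The 95% intervals given below are exact intervals on reads and cover counting error only. Of the 8 hepatocyte markers examined, TTR was at 0 in the parent and in subclone 1, and the sum was 22.9 RPKM in the parent, against 98.0 in subclone 1 and 100.1 in subclone 2, mainly through ALB (2.46, 49.5 and 68.8 RPKM) and, in subclone 1 only, TF (5.71, 30.3 and 5.88 RPKM). APOA1 and SERPINA1 stayed below 1 RPKM in all 3 libraries. APOB was below 1 RPKM in the parent, with 1.23 in subclone 1 and 4.17 in subclone 2. AFP had 2.41, 4.16 and 4.27 RPKM. HNF4A, a transcription factor of hepatocytes, was present in all 3 libraries (11.7, 11.9 and 16.0 RPKM). The stromal markers summed to at most 4.80 RPKM. The 3 endothelial markers summed to 3.38, 9.89 and 4.49 RPKM, nearly all of it PECAM1 (3.33, 9.81 and 4.46), with CDH5 and VWF at or near 0. Among leukocyte markers PTPRC and CD3E were at or near 0, and CD68 held nearly the whole sum (75.4, 112.3 and 99.6 RPKM for the 3 markers). The part of these marker levels in the results was not tested.

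The mitochondrial ribosome makes the few proteins that the organelle encodes, all of them core subunits of the respiratory chain and ATP synthase. Its small subunit reads the mRNA and its large subunit joins amino acids. Each contains proteins with a bacterial counterpart and proteins found in mitochondria only, and defects in many of them cause combined respiratory chain disease. By current ribosomal names, 49 of the 76 genes encode large subunit proteins and 26 small subunit proteins. MRPS30 (mL65) and MRPS18A (mL66) carry small subunit symbols although their products sit in the large subunit. MRPS36 belongs to neither, since its product is a component of the 2-oxoglutarate dehydrogenase complex. By the same names, 46 of the proteins are classed as having a bacterial counterpart and 29 as specific to mitochondria. MRPS18A and MRPS18B count among the 29 by name, although they are relatives of the bacterial protein S18.

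All 76 genes were listed in each library and all had a mean of at least 1 RPKM, the limit used for the 11370 genes that serve as background. The median level of the group in parent, subclone 1 and subclone 2 was 33.6, 29.7 and 33.7 RPKM, so that a typical member stood at percentile 80.0, 77.4 and 79.5 of the background. In the parent the level ranged from 2.18 to 198.9 RPKM, a 91.2-fold span, with 7 to 1058 reads for a gene. The highest level belonged to MRPL24 (uL24m), a protein near the exit of the peptide tunnel, at 198.9, 165.7 and 179.0 RPKM in parent, subclone 1 and subclone 2. MRPL51 (mL51), a mitochondria-specific protein, had 153.0, 171.0 and 195.4 RPKM. These 2 genes changed places between libraries, MRPL24 leading in the parent and MRPL51 in both subclones. MRPS35 (mS35) had 122.8, 96.3 and 105.0 RPKM. MRPL12 and MRPL3, with 126.9, 83.2 and 97.2 RPKM and 115.2, 84.4 and 90.7 RPKM, completed the 5 highest, and all 3 were highest in the parent and lowest in subclone 1.

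At the lower end stood MRPS24 (uS3m), a small subunit protein with a bacterial counterpart, at 2.18, 2.12 and 2.96 RPKM from only 7, 7 and 10 reads. Its fold of subclone 2 over the parent was 1.36 (0.466 to 4.20), and a difference could not be detected from so few reads. MRPS24 shares 23.2% of its exonic bases with URGCP-MRPS24, an annotated read-through gene on the same strand, and how the counting divided such reads is not given in the sources used here. MRPS25 (mS25) had 4.97, 3.46 and 4.12 RPKM, MRPL22 (uL22m) 7.40, 6.60 and 7.36, and MRPS14 (uS14m) 7.42, 7.32 and 7.33. The fifth of the lowest genes, MRPS31, is described further on. MRPS14 differed least of these genes between the libraries.

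**Figure D1:**
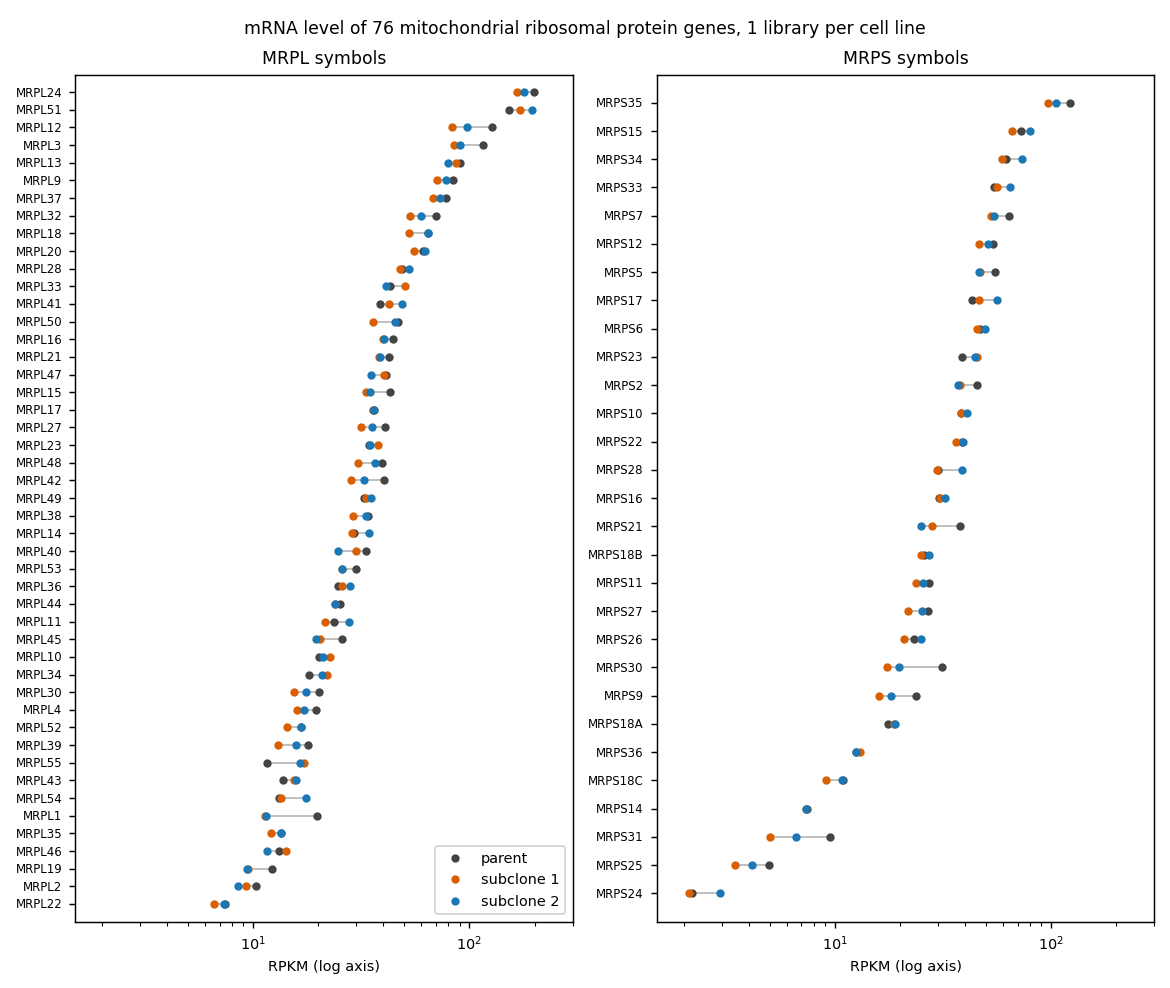
Level of each of the 76 genes in RPKM on a log axis, with MRPL symbols on the left and MRPS symbols on the right, ordered by mean level. Each point is 1 library (black parent, orange subclone 1, blue subclone 2), and in 46 of the 76 rows the lowest point is subclone 1, whereas the points of most genes lie close together.

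Levels of a given gene were close in the 3 libraries. The highest library exceeded the lowest by a median of 1.21-fold over the 76 genes and by 1.89-fold at most, and 33 of 76 lay under 1.2-fold. Over the 11325 background genes listed in all libraries the median was 1.30-fold, and 3728 lay under 1.2-fold. Under the deposited scaling the parent was nevertheless most often the highest and subclone 1 most often the lowest, and these counts were not repeated under other scalings. The parent was highest for 43 genes, subclone 2 for 25 and subclone 1 for 8, against 38.3%, 35.3% and 26.4% of background genes. The lowest level was in subclone 1 for 46 of the 76 genes, in the parent for 18 and in subclone 2 for 12, where background genes gave 32.4%, 42.3% and 25.3%.

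The library of subclone 1 held less mRNA of this group than that of the parent. In bulk libraries, fewer cells with high levels and less RNA in each cell cannot be told apart. The 76 genes together took 19081 reads in the parent and 17033 in subclone 1, or 0.425% and 0.370% of each library, a ratio of 0.869 (95% interval 0.851 to 0.887). On the scale of log2 of RPKM plus 0.1, which understates the change of low genes, the median ratio was -0.16, while the median of the background genes was 0.00. There were 56 genes below 0 (73.7%, against 49.6% of the background) and 20 above 0. The sign of this median was negative with each scaling tried.

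Single genes moved little in this comparison. Of the 76 genes, 4 were at least 1.5-fold lower in subclone 1, namely MRPS31, MRPS30, MRPL1 and MRPL12, where the background gave 7.46%, and 0 were at least 1.5-fold higher, where it gave 11.6%. The ratio of 25 genes (32.9%) had an interval entirely below 1, against 19% of the background, and that of 1 gene, MRPL55, lay entirely above 1, against 19.9%. Among the 5840 genes of like read number (228 to 1432 reads over the 3 libraries, the middle range of the members), 19.5% were below and 19.6% above. The log2 ratios ran from -0.90 to 0.56. Apart from the 4 genes named, each gene was within 1.5-fold of the parent.

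Genes of both subunits were among these. The small subunit genes had a median log2 ratio of -0.15 and the large subunit genes -0.16, with intervals below 1 for 8 of 26 (30.8%) and 17 of 49 genes (34.7%), against the 19% of the background. The proteins classed by name as having a bacterial counterpart gave -0.15 and those classed as specific to mitochondria -0.16. In pooled reads subclone 1 had 0.895 times the small subunit mRNA of the parent (0.864 to 0.927) and 0.855 times the large subunit mRNA (0.834 to 0.877). The difference between the subunits was not tested.

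**Figure D2:**
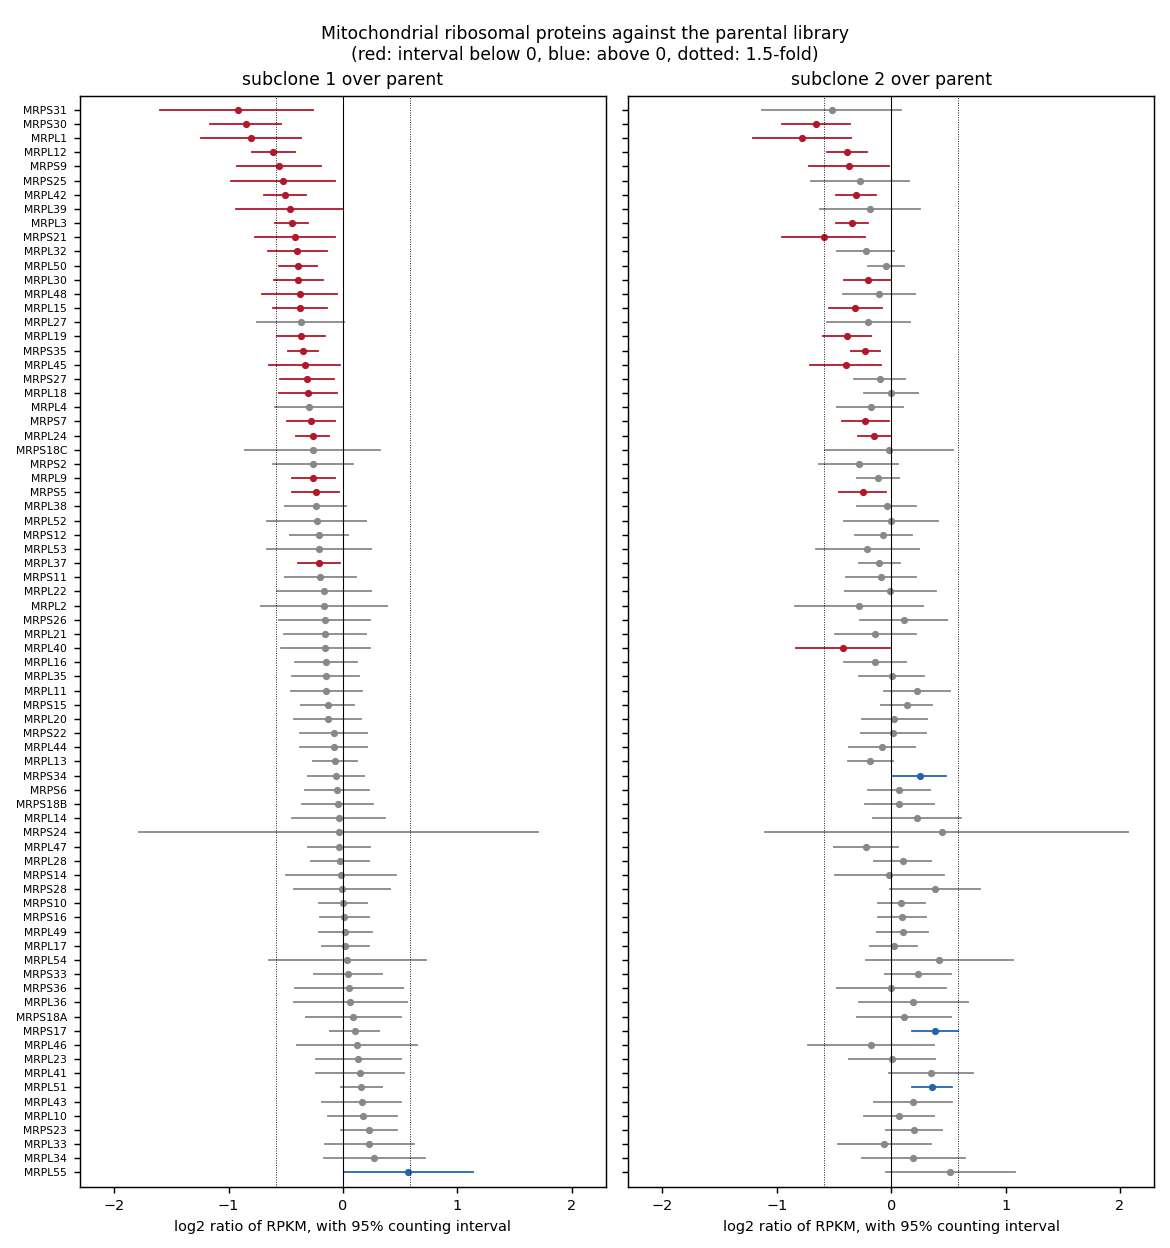
Log2 ratio of RPKM of each subclone over the parent for the 76 genes, in the order of subclone 1, with bars for the 95% counting interval and dotted lines at 1.5-fold. Red marks the 25 (subclone 1) and 16 (subclone 2) genes whose interval lies below 0 on this axis, and blue the 1 and 3 genes above it.

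Subclone 2 stood nearer to the parent. Its 18924 reads in the group made 0.400% of the library, 0.942 times the parent (0.923 to 0.961). The median log2 ratio was -0.05 where the background had 0.04. With GAPDH scaling it was 0.01 where the background had 0.10, so that its sign changed. A scaling moves all genes of a library together, so the distance of the group from the background median stayed about the same by construction. In this comparison 45 genes were below 0 (59.2%, against 46.5% of the background) and 31 above 0. The genes at least 1.5-fold lower were 3, MRPL1, MRPS30 and MRPS21, against 7.3% of the background, and 0 were at least 1.5-fold higher, against 12.7%. Intervals lay below 1 for 16 genes (21.1%), against 17.9% of the background, and above 1 for 3 genes, MRPS17, MRPL51 and MRPS34, against 22.6%. The count below 1 was near the background, and the count above 1 was under it.

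Of the 16 genes, 11 belonged to the large subunit (22.4% of its genes) and 5 to the small (19.2%), both near the share of the background. The 26 small subunit genes were evenly divided, 13 below and 13 above 0, with pooled reads at 0.983 times the parent (0.95 to 1.02). The large subunit genes had 0.921 times the reads of the parent (0.899 to 0.945), and the difference between the subunits was again not tested. The share of the parental library in the small subunit genes was 0.142% and in subclone 2 0.139%, and for the large subunit it was 0.282% and 0.259%. MRPS17 (uS17m) had 43.1, 46.3 and 56.1 RPKM, which made subclone 2 1.30-fold higher than the parent (1.13 to 1.5). MRPL51 was 1.28-fold higher there (1.13 to 1.44) and MRPS34 1.19-fold (1.01 to 1.39). The count of 3 became 2 when ratios were centred or scaled to the upper quartile, without MRPS34. MRPS17 has 4 named pseudogenes and MRPL51 has 1, and reads of such copies may be counted with the gene. MRPS17 also shares 27.0% of its exonic bases on the same strand with NIPSNAP2 and AC092647.5, and MRPL51 shares 31.3% with NCAPD2 on the other strand, so that part of their reads may be uncertain. MRPS17 falls outside the rule for named genes and was chosen after its value was seen.

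The parent is shared by both comparisons, so the subclones were also set against each other. Subclone 2 had 1.08 times the reads of subclone 1 in the group (1.06 to 1.11), a median log2 ratio of 0.12 where the background had 0.03, with 58 genes above 0 and 18 below (23.7%, against 43.5% of the background below). The direction was the same with each scaling tried. Intervals lay above 1 for 10 genes (13.2%), against 11.5% of the background, and below 1 for 0 genes, against 8.47%. Past 1.5-fold there were 0 genes higher, against 4.75%, and 0 lower, against 4.11%. The range was narrow, from -0.29 to 0.46. The count above 1 was near the background. It fell to 8 when rescaled to the same RPKM sum, 6 when ratios were centred and 5 with the upper quartile. All 76 genes were within 1.5-fold.

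The genes with the largest ratios encode proteins of different roles. MRPL1 (uL1m, gene 65008) is the protein of the L1 stalk, which releases spent tRNA from the large subunit. It had 19.7 RPKM in the parent (122 reads), 11.3 in subclone 1 (72 reads) and 11.5 in subclone 2 (75 reads). The 2 subclones were alike and both below the parent, at 0.575-fold (0.423 to 0.775) and 0.584-fold (0.432 to 0.785). The gene occupies chromosome 4, bases 77862830 to 77952785 of GRCh38.p14, plus strand.

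MRPS30 (mL65, gene 10884), a mitochondria-specific protein of the large subunit, occupies chromosome 5, bases 44808947 to 44815514, plus strand. Its levels of 31.3, 17.4 and 19.8 RPKM came from 237, 135 and 158 reads. Both subclones were lower, at 0.555-fold (0.446 to 0.688) and 0.633-fold (0.515 to 0.778), and the ratio between them, 1.14 (0.902 to 1.45), did not exceed counting error. MRPS31 (mS31, gene 10240), a mitochondria-specific small subunit protein, occupies chromosome 13, bases 40729128 to 40771190, minus strand. It had 9.45, 5.0 and 6.61 RPKM from 57, 31 and 42 reads. It was 0.530-fold in subclone 1 (0.330 to 0.834), the lowest ratio of the group, whereas in subclone 2 the interval of 0.700-fold reached 1.06. MRPS31 has 4 named pseudogenes.

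MRPL12 (bL12m, gene 6182) forms the flexible stalk that recruits translation factors and has also been described as a partner of the mitochondrial RNA polymerase. It occupies chromosome 17, bases 81703367 to 81707517, plus strand. With 588, 396 and 474 reads it was the best measured of these genes. Its 126.9 RPKM in the parent compared with 83.2 in subclone 1, 0.656-fold (0.576 to 0.746), and 97.2 in subclone 2, 0.766-fold (0.677 to 0.866). Subclone 2 also exceeded subclone 1, by 1.17-fold (1.02 to 1.34), so that under the deposited scaling MRPL12 had a different level in each library beyond counting error. That last interval included 1 when ratios were centred or scaled to the upper quartile. In the GENCODE annotation 68.2% of its exonic bases are shared on the same strand with AC139530.2, the single member with over 50% shared, and reads of the pair may not be separable.

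MRPS21 (bS21m, gene 54460), a small subunit protein, occupies chromosome 1, bases 150293861 to 150308979, plus strand. Its levels were 37.7, 28.2 and 25.1 RPKM (160, 123 and 112 reads). Subclone 1 was at 0.749-fold of the parent (0.587 to 0.953) and subclone 2 at 0.665-fold (0.518 to 0.852), just past 1.5-fold, at a log2 ratio of -0.59 that was within 1.5-fold at -0.57 with a pseudocount of 1 and at -0.52 with GAPDH scaling. It has 8 named pseudogenes, more than any other member, and is uncertain for that reason. MRPL55 (bL31m, gene 128308), at chromosome 1, bases 228106685 to 228109299, minus strand, went the other way. It had 11.6, 17.2 and 16.6 RPKM from 46, 70 and 69 reads, 1.48-fold (1.01 to 2.2) and 1.42-fold (0.967 to 2.12) of the parent. It is named because it was the only interval above 1 in subclone 1, a choice made after its value was seen, and that count became 0 with scaling to ACTB or GAPDH.

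**Figure D3:**
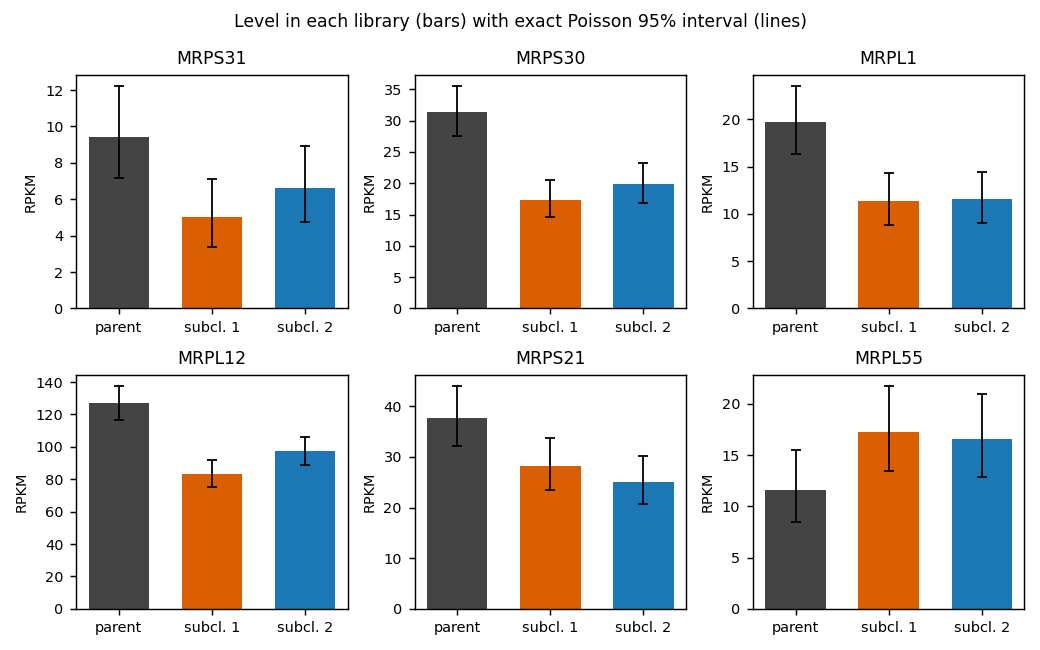
Level in RPKM of the 5 genes at least 1.5-fold lower in either subclone than in the parent and of MRPL55, with bars from 0 for each library and lines for the exact Poisson 95% interval. The parent is highest in 5 panels and lowest in the panel of MRPL55, where its interval overlaps those of both subclones.

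The genes around these on the chromosome did not show the same ratios. For each gene, the 10 nearest background genes on each side were taken. In subclone 1 over the parent the neighbours of MRPS31, MRPS30, MRPL1, MRPL12 and MRPS21 had median log2 ratios of -0.05, 0.02, 0.01, 0.04 and -0.05, where the genes themselves had -0.90, -0.85, -0.79, -0.61 and -0.42. In subclone 2 the neighbours gave 0.02, -0.04, 0.29, -0.03 and 0.09, against -0.51, -0.66, -0.77, -0.38 and -0.59. These genes were chosen for their large ratios, so that neighbours nearer to 0 were likely in advance. A cause shared along the chromosome was not tested.

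The start regions of these 6 genes are shown because they are the members with the largest ratios over the parent. Each line gives 250 bases of the reference (RefSeq, GRCh38.p14), from 220 before to 30 after the gene start, 5′ to 3′ on the strand of the gene. Capitals mark the letters of 3 motifs known from promoters of nuclear genes for mitochondria, read on either strand: CCGGAAG, the core bound by ETS factors such as GABP, AAGATGGCG, bound by YY1, and GGGCGG, bound by SP1.
MRPL1, chr4:77862610-77862859, plus strand: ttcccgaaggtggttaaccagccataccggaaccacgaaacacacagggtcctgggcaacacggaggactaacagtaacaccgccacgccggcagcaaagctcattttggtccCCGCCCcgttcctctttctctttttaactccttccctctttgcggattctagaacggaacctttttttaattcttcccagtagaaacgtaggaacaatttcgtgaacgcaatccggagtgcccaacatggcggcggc
MRPS30, chr5:44808727-44808976, plus strand: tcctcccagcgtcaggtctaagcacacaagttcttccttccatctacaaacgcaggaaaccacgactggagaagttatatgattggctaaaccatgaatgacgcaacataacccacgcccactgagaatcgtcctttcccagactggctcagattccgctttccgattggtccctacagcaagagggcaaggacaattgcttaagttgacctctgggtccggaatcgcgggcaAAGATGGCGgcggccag
MRPS31, chr13:40771161-40771410, minus strand: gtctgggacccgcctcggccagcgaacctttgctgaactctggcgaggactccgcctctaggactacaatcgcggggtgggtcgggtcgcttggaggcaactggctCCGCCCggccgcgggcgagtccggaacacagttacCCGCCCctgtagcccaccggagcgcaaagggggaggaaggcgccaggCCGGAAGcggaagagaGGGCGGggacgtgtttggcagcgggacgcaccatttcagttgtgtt
MRPL12, chr17:81703147-81703396, plus strand: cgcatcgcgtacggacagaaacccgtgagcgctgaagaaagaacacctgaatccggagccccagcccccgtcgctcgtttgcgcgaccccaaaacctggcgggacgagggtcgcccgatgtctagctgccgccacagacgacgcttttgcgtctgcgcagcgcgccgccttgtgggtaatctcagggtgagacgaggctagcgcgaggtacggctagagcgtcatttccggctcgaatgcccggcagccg
MRPS21, chr1:150293641-150293890, plus strand: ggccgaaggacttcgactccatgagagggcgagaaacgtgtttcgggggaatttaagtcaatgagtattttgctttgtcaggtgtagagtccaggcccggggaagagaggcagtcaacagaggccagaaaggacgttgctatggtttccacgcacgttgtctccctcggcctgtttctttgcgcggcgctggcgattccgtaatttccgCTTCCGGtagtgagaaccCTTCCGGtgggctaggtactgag
MRPL55, chr1:228109270-228109519, minus strand: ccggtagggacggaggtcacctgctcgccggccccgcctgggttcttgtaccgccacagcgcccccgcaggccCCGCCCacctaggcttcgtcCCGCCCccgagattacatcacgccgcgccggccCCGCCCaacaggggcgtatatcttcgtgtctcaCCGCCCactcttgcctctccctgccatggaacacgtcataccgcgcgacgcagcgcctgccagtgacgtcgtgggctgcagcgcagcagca

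The 6 windows had little in common. MRPS21 held the ETS letters at -11 and 8 from the start and MRPS31 at -32. MRPS30 held the YY1 letters at 14. SP1 letters stood at -107 in MRPL1, at -114, -79 and -16 in MRPS31, and at -147, -127, -94 and -61 in MRPL55, while MRPL12 held none of the motifs. A match of letters is a description of the sequence and not a site in use.

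Of the 76 genes, 68 had a start region in the RefSeq table (250 bases before to 50 after the start), and the same letters together with GCGCATGCG, bound by NRF1, were searched in all of them. The ETS letters were in 28 (41.2%), against 10.7% of all 27305 start regions and 20.8% of the 9235 that belong to background genes. The YY1 letters were in 13 (19.1%), against 1.85% and 4.33%. The SP1 letters were in 42 (61.8%), against 44.6% and 70.8%, and the NRF1 letters in 3 (4.41%), against 2.10% and 4.03%. The last letters of the ETS motif are the first of the YY1 motif, so that 1 stretch could hold both, and the NRF1 motif can match on both strands at nearly the same place. Both shares stood above those of background genes. The start regions of 67 cytosolic ribosomal protein genes held the ETS letters in 34.3% and the YY1 letters in 8.96%. By ratio, the ETS letters were in 5 of the 24 start regions of genes with an interval below 1 in subclone 1 (20.8%) and in 23 of the other 44 (52.3%), and the YY1 letters in 4 and 9. These shares were not tested.

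The genes with a known role in disease were mostly close in the 3 libraries. MRPL3 (uL3m), a protein near the catalytic centre in which defects cause cardiomyopathy, was at 0.733-fold of the parent in subclone 1 (0.663 to 0.809) and 0.787-fold in subclone 2 (0.714 to 0.867). MRPS7 (uS7m) had 63.8, 52.6 and 54.5 RPKM and was at 0.824-fold (0.712 to 0.953) and 0.855-fold (0.741 to 0.987). Both were highest in the parent beyond counting error. MRPS2 (uS2m) had 45.4, 37.9 and 37.3 RPKM, with intervals that reached 1.06 and 1.04. MRPL44 (mL44), in which defects also cause cardiomyopathy, had 25.3, 23.9 and 23.9 RPKM. For MRPS16 (bS16m; 30.3, 30.5 and 32.3 RPKM), MRPS22 (mS22; 38.6, 36.4 and 39.0) and MRPS23 (mS23; 38.8, 45.5 and 44.5) no difference from the parent was detectable at this depth.

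MRPS34 (mS34) had 62.0, 59.6 and 73.7 RPKM, and MRPS28 (bS1m) 29.8, 29.7 and 38.9 RPKM. In both genes subclone 2 stood above the other libraries, by 1.24-fold over subclone 1 for MRPS34 (1.05 to 1.45) and by 1.31-fold for MRPS28 (1.00 to 1.72 as rounded, the lower bound lying just above 1). The interval of MRPS28 included 1 when ratios were centred, scaled to the upper quartile or rescaled to the same RPKM sum. MRPS28 also shares 35.8% of its exonic bases on the same strand with AC036214.3. MRPS12 (uS12m), a protein of the decoding centre, had 53.7, 46.5 and 51.2 RPKM, and MRPS6 (bS6m) 47.1, 45.4 and 49.3. Neither differed from the parent beyond counting error. MRPL11 (uL11m), at the base of the stalk that MRPL12 completes, had 23.7, 21.4 and 27.7 RPKM. Like MRPL12 it was lowest in subclone 1, and subclone 2 was at 1.29-fold of subclone 1 (1.06 to 1.59). Unlike MRPL12 it was highest in subclone 2, but its intervals over the parent, 0.728 to 1.12 and 0.958 to 1.43, both included 1.

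MRPL13 (uL13m) had 90.6, 86.5 and 79.8 RPKM and MRPL28 (bL28m) 48.7, 47.8 and 52.3. MRPL41 (mL41) had 38.4, 42.6 and 48.9 RPKM, and its 1.27-fold in subclone 2 had an interval from 0.986 to 1.65. For these 3 genes the intervals over the parent included 1 in both subclones. The 3 relatives of the bacterial protein S18 had levels of 17.5, 18.7 and 18.9 RPKM for MRPS18A (mL66), 25.8, 25 and 27.1 for MRPS18B (mS40), and 10.9, 9.10 and 10.8 for MRPS18C (bS18m). MRPS18B thus had the highest level of the 3 relatives in each library and MRPS18C the lowest. MRPS36, the dehydrogenase component, had 12.6, 13.1 and 12.6 RPKM, and leaving it out did not change the direction of a median.

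The cytosolic ribosome and the respiratory chain were the groups most like this one. The 84 cytosolic ribosomal protein genes had a median log2 ratio of -0.07 in subclone 1 over the parent. Their intervals lay below 1 for 38 (45.2%, against 19% of the background) and above 1 for 5 (5.95%, against 19.9%). In subclone 2 their median was -0.04, or 0.02 with GAPDH scaling, with 33 below (39.3%, against 17.9%) and 9 above (10.7%, against 22.6%). Their median level in the parent was 507.2 RPKM, against 33.6 for the mitochondrial group. More reads make narrower intervals, so these counts are not like for like. The 75 nuclear genes of the respiratory chain and ATP synthase had 0.06 in subclone 1, or -0.07 with ACTB scaling, with 7 intervals below (9.33%) and 12 above (16%). In subclone 2 the median of these 75 genes was 0.17, with 7 below (9.33%) and 31 above (41.3%), against the same background shares as above. Under the deposited scaling the mitochondrial ribosomal genes therefore stood lower than the respiratory chain genes in both subclones, and this difference between groups was not tested. Scaling to ACTB moved the median of all genes by -0.13 in subclone 1 over the parent and by 0.12 in subclone 2 over subclone 1, and scaling to GAPDH moved the latter by 0.12.

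**Figure D4:**
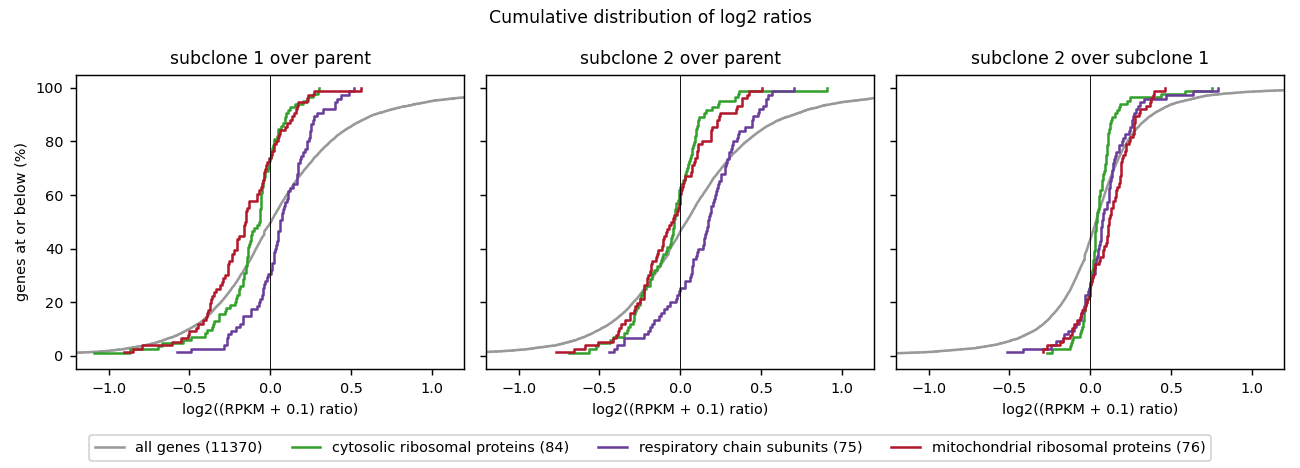
Share of genes (%) at or below each log2 ratio, for the 76 mitochondrial ribosomal protein genes (red), 84 cytosolic ribosomal protein genes (green), 75 respiratory chain and ATP synthase genes (purple) and all 11370 background genes (grey), in the 3 comparisons of libraries as deposited. The red curve lies left of the purple one over the parent, and its median of -0.05 in subclone 2 lies left of the background median of 0.04 (0.01 and 0.10 with GAPDH scaling).

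Other proteins needed for mitochondrial translation were read from fixed lists. Past 1.5-fold, the background gave 7.46% lower and 11.6% higher in subclone 1, and 7.3% lower and 12.7% higher in subclone 2. The 7 mitoribosomal proteins with other symbols had medians of -0.09 in subclone 1 and -0.10 in subclone 2 over the parent, with 0 past 1.5-fold. DAP3, a GTP-binding protein of the small subunit, had 136.2, 129.5 and 130.5 RPKM. The 23 assembly factors had -0.20 and, in subclone 2, -0.03, or 0.03 with GAPDH scaling. Of these, 2 were at least 1.5-fold lower in subclone 1 and 3 in subclone 2, and 0 were that much higher in either. DHX30, an RNA helicase, had 28.3, 15.3 and 17.6 RPKM, at 0.542-fold (0.468 to 0.626) and 0.621-fold (0.540 to 0.712). NSUN4, a methyltransferase of ribosomal RNA, had 6.19, 4.03 and 5.21 RPKM. FASTKD2 had 9.46, 6.81 and 5.64, and TFB1M, which methylates the small ribosomal RNA, 3.87, 3.16 and 2.03.

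Among 14 translation factors the medians were -0.15 in subclone 1 and 0.01 in subclone 2, where the sign turned with several scalings. TUFM, the elongation factor that brings tRNA to the ribosome, had 99.5, 90.3 and 98.3 RPKM, TSFM, its exchange factor, 13.9, 15.2 and 14.5, and GFM1, the translocase, 41.0, 33.9 and 33.5. LRPPRC, which stabilises mitochondrial mRNA, had 75.7, 57.6 and 44.5 RPKM from 2255, 1762 and 1395 reads. It was the 1 factor at least 1.5-fold lower in subclone 2, at 0.588-fold (0.549 to 0.629), where the background gave 7.3%. The only factor past this fold in subclone 1, where the background gave 7.46%, was MTRF1, with 14 and 7 reads and an interval from 0.166 to 1.29. The 17 mitochondrial tRNA synthetases had medians of -0.08 and -0.11. Of them 2 were at least 1.5-fold lower in both subclones, where the background gave 7.46% in subclone 1 and 7.3% in subclone 2. MARS2, for methionine, had 7.76, 3.29 and 2.05 RPKM (108, 47 and 30 reads), and LARS2, for leucine, 8.96, 5.42 and 4.83 RPKM.

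Regulators of mitochondrial genes had medians of -0.10 and -0.11, and the 5 genes of mitochondrial transcription -0.19 and 0.06. MYC, a transcription factor that also acts on ribosome genes, had 88.3, 54.7 and 54.4 RPKM, and PPRC1, a coactivator of the PGC-1 family, 17.4, 10.7 and 10.9. These were the 2 genes at least 1.5-fold lower among the 8 background genes of the list, and they were so in both subclones. All background genes gave 7.46% in subclone 1 and 7.3% in subclone 2. TFAM, which packs mitochondrial DNA and is a factor of its transcription, had 31.4, 20.6 and 22.3 RPKM, at 0.656-fold (0.541 to 0.794) and 0.710-fold (0.589 to 0.854). The RNA polymerase POLRMT had 8.97, 8.45 and 9.36 RPKM, NRF1 4.91, 5.33 and 4.78, and the ETS factor GABPA 10.7, 8.79 and 9.96. PPARGC1B had 1.15, 0.775 and 0.895 RPKM and PPARGC1A was listed in none of the libraries. MYC, PPRC1 and TFAM thus were highest in the parent beyond counting error, and no interval of POLRMT, NRF1 or GABPA over the parent excluded 1. Of the same list, and chosen after values were seen, ESRRA was higher in subclone 2 at 1.44-fold (1.2 to 1.73) and GABPB1 lower at 0.754-fold (0.593 to 0.958).

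**Figure D5:**
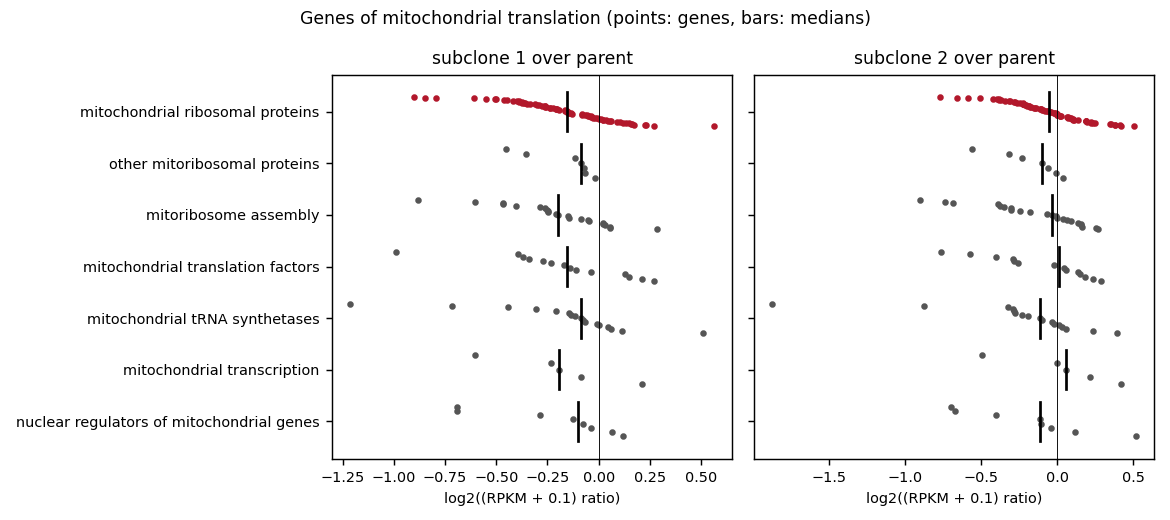
Log2 ratio over the parent of each background gene (points) in the group and in 6 lists of other genes for mitochondrial translation, transcription and regulation, with a black bar at the median of each list. Medians of the lists lie between -0.20 and 0.06, several of those in subclone 2 change sign with the scaling, and the lowest points are MARS2 at -1.21 and -1.87.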

How the data were processed

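RNA of 3 cell lines (1 library each) was taken up in Trizol and prepared with an Illumina TruSeq kit. Per gene, the authors deposited an RPKM with Entrez number and symbol. The submitters' processing notes name the build hg 19, and the aligner, counter, annotation and strand handling are not given in the sources used here. The files list genes above 0 and a missing gene was set to 0. The members and lists were chosen with earlier results of these data known.

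Ratios were log2 of RPKM plus 0.1, over the 11370 genes with a mean of at least 1 RPKM. Whole reads were recovered from the RPKM, since a value is reads over length and library total. For 11344 of the 11370 genes (99.8%) and all 76 members the 3 values were whole to within 0.004 reads at a common length of up to 20000 bases, multiplied to meet a transcript within 10% where it was under 0.5 times the median GENCODE transcript, a rule revised after values were seen. The lengths of 55 members came within 10% of a transcript, and those of 20 members exceeded their longest reference transcript. MRPL19, MRPL30 and MRPL15 are among the latter and among the intervals below 1 in both subclones. Their lengths were 7827, 4554 and 1749 bases, against 4601, 2898 and 1191 exonic bases in GENCODE. For MRPL30 in subclone 2 the upper bound was only 0.9995. Where a length is too long, the reads are too many and the interval is too narrow. Levels were given Poisson and ratios Clopper-Pearson 95% intervals. On simulated data for subclone 1 over the parent, 2000 genes were drawn, and 92.2% of those whose reads could be recovered had the right reads. Intervals were checked on the simulated reads themselves, and 95.9% of those of unchanged genes held the true ratio. Errors of the recovery were not part of that check. Of 200 genes changed 2-fold among 11344, 95.5% passed 1.5-fold.

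Named members were the 5 highest and 5 lowest, those past 1.5-fold (at most 6 per direction and comparison), any at 0, and 22 with a known role or disease link. Of other lists, up to 3 genes past 1.5-fold and 13 set genes were named. Gene places and start regions came from RefSeq and exons from GENCODE, both GRCh38. Alternatives were other pseudocounts, filters, scalings and member lists. Computation was in scipy 1.17.1, pandas 2.3.3 and numpy 2.4.6 under Python 3.11.15.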

Additional observations from a re-analysis of the deposited data

Results flagged for a closer look

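In 4 genes the subclones lay on opposite sides of the parent and the interval of subclone 2 over subclone 1 was above 1, and with 1 library per line the difference was not tested between cell lines. As log2 values these ratios between the subclones were 0.27 for MRPS15, 0.31 for MRPS34, 0.39 for MRPS28 and 0.37 for MRPL11. Between the subclones, the interval of MRPS28 included 1 when ratios were centred, scaled to the upper quartile or rescaled to the same RPKM sum. That of MRPS15 included 1 with the upper quartile. MRPS15 (uS15m), outside the rule for named genes, had 72.5, 66.1 and 79.6 RPKM in parent, subclone 1 and subclone 2. Over the parent, the only interval of these genes that excluded 1 was that of MRPS34 in subclone 2 (1.01 to 1.39), and it included 1 when ratios were centred or scaled to the upper quartile.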

How the results depend on the processing

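No paired analysis was possible because the 3 libraries are 1 per cell line, and for the same reason no replicate could be left out. Pseudocounts of 0.01 and 1 and a mean of at least 5 RPKM left each median and each count past 1.5-fold close to the value reported. With a pseudocount of 1, however, the 3 genes at least 1.5-fold lower in subclone 2 became 2, without MRPS21, as also with GAPDH. Dropping the filter could change nothing, since every member passed it. Adding the 7 other mitoribosomal proteins or leaving out MRPS36 kept each median close, and counts were not repeated for these member lists. The scaling mattered more. In subclone 1 over the parent, the median log2 ratio of -0.16 became -0.29 with ACTB and -0.21 with GAPDH, and the 4 genes at least 1.5-fold lower became 8 with ACTB. In subclone 2 over the parent, the median of -0.05 became -0.090 with the upper quartile, -0.091 when centred on all genes and 0.009 with GAPDH. In subclone 2 over subclone 1, the median of 0.12 became 0.0685 with the upper quartile, 0.0844 when centred, 0.24 with ACTB and 0.24 with GAPDH. At 2-fold in place of 1.5-fold, 0 genes were lower in subclone 1 and 0 in subclone 2. Counts of intervals were repeated under other scalings only, and these were added after values were seen. The 1 gene above the parent in subclone 1 became 2 with the upper quartile, 0 with ACTB and 0 with GAPDH. For subclone 2 over the parent, the 3 genes above became 2 when centred or with the upper quartile, without MRPS34, and GAPDH gave 9 above and 10 below in place of 16. The 10 genes above subclone 1 in subclone 2 became 8 when rescaled to the same RPKM sum, 6 when centred, 5 with the upper quartile, 27 with ACTB and 22 with GAPDH. Of 372 values of the 31 named genes under alternatives, 371 stayed within their interval, and the exception was MRPS35 in subclone 1 over the parent, at -0.48 with ACTB. Depth limits genes such as MRPS24, with 7 reads, most.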

Other observations

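Members lay in stretches of chromosomes 2 and 3 whose genes were lower in the subclones, and these were chosen after values were seen. MRPS25, on chromosome 3, had log2 ratios over the parent of -0.51 in subclone 1 and -0.26 in subclone 2, and its 20 nearest background genes had medians of -0.56 and -0.27, with 19 and 20 of them below 0. MRPL44, on chromosome 2, had -0.08 in both subclones, while its 20 neighbours had medians of -0.33 and -0.69, with 15 and 17 below 0. The 8 members on chromosome 2 had medians of -0.22 and -0.21, against -0.13 and -0.31 for all background genes of that chromosome. For 33 of the 76 genes the annotation holds at least 1 pseudogene named after the gene, 70 in all.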
